A study of Mus musculus with 16 samples.

Results

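To describe what inhibition of PARP enzymes does to H3K27ac in macrophages that are responding to interferon gamma (IFNγ), the H3K27ac peaks of bone marrow-derived macrophages (BMDMs) given IFNγ for 1 h were compared with those of BMDMs given IFNγ for 1 h together with the PARP inhibitor PJ34. All cells were grown from the marrow of C57Bl6 mice aged 8 to 12 weeks. IFNγ was used at 100 ng/mL, and PJ34 at 20 µM was added 1 h before it. Each condition had 2 ChIP replicates with matched input DNA, and its deposited list holds the peaks found in both replicates, so replicate error is unknown throughout and no test across samples could be run. Lists of untreated (Control) and PJ34-treated BMDMs, which share no ChIP sample with the IFNγ lists, served as points of reference. The comparison took in every peak of the IFNγ list (40708 peaks) and of the IFNγ+PJ34 list (42960 peaks). Peaks that overlapped by 1 bp or more were merged into 48457 regions, of which 26959 held a peak of each list, while the lists of all 4 conditions merged into 55218 regions.

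IFNγ binds a receptor at the cell surface and activates the kinases JAK1 and JAK2, which start a phosphorylation cascade that ends at the DNA. Its target genes, among them those for antigen presentation, chemokines and antimicrobial GTPases, carry GAS elements, and IRF1, itself induced by IFNγ, acts with related factors at ISRE elements. PARP-1 is a nuclear enzyme that attaches ADP-ribose to itself, to histones and to transcription factors, and PJ34 blocks the catalytic activity of PARP-1 and related enzymes. H3K27ac, acetylation of lysine 27 of histone H3, marks active promoters and enhancers.

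The regions that set the lists apart included the promoters of Cxcl1 and Cxcl2, neutrophil-attracting chemokines, and of Tnip1, which restrains NF-κB signalling. Their H3K27ac ranked lower or was missing in IFNγ+PJ34, and the 200 bases upstream of their RefSeq start sites (GRCm38.p6) are shown with a match to the NF-κB consensus in capitals. The window of Tnip1 also holds a GAS match, which is not marked.
Cxcl1, chr5:90891045-90891244, plus strand: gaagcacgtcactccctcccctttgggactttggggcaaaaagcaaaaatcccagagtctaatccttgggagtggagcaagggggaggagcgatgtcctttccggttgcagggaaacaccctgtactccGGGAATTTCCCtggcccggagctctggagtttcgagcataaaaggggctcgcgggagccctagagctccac
Cxcl2, chr5:90903699-90903898, plus strand: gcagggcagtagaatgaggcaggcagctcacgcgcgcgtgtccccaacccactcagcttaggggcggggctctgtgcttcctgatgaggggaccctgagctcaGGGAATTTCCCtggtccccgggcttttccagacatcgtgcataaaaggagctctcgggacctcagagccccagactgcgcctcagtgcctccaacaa
Tnip1, chr11:54962941-54963140, minus strand: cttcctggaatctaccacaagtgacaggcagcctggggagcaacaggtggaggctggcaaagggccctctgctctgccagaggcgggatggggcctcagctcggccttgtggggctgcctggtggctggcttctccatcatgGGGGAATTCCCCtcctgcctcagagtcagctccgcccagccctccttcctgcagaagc

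The promoters of Irf1 and of Icam1, an adhesion molecule, ranked near the top of both lists. Their upstream sequences, on the same build, are shown with the GAS element TTCNNNGAA in capitals, and the 250 bases before the Irf1 start also hold an NF-κB match. For Irf1 the stretch belongs to the first of its start sites in the RefSeq table, and the 250 bases before its other start hold no match to the motifs searched. Irf1 ranked lower in IFNγ+PJ34 than in IFNγ, with a lower fold enrichment, as given below.
Irf1, chr11:53769814-53770013, plus strand: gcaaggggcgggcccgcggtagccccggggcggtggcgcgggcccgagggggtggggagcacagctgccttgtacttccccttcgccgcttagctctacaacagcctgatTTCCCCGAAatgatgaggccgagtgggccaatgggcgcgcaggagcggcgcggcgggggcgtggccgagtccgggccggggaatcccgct
Icam1, chr9:21015740-21015939, plus strand: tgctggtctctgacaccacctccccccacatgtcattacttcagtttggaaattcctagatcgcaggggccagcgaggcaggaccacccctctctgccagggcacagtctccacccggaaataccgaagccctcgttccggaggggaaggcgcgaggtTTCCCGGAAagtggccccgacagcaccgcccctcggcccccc

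Distal sites differed as well, and 200 bases around the summits of 3 of them, read from the plus strand of GRCm38, are given here because these loci are described below in each list. The first lies in an intron of Mrc1, the mannose receptor gene, and had a peak in IFNγ+PJ34 and none in IFNγ. It holds a match to the ISRE consensus (GAAA, any 2 bases, GAAA), in capitals. The others lie upstream of Ccl2, a monocyte-attracting chemokine, where the peak was far higher in IFNγ+PJ34, and upstream of Cxcl1, where the IFNγ peak had no counterpart, and neither holds a GAS, ISRE, NF-κB or AP-1 match.
Mrc1 intron, chr2:14261868-14262067: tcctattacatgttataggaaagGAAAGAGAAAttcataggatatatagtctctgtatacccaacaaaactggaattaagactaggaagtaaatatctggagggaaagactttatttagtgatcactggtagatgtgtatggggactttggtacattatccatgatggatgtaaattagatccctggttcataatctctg
Ccl2 upstream, chr11:82023108-82023307: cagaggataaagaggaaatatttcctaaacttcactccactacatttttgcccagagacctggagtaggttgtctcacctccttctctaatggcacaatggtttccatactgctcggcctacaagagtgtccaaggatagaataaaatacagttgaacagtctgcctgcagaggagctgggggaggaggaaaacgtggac
Cxcl1 upstream, chr5:90881269-90881468: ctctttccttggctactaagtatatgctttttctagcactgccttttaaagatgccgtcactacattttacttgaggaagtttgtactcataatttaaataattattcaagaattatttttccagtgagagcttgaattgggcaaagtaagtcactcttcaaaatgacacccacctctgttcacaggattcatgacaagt

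The lists themselves differed in ways that bear on every comparison. The peak numbers left in the files show that 80.1% of the numbered IFNγ peaks and 86.2% of the numbered IFNγ+PJ34 peaks were kept, and among numbers above 30000 and up to 40000 the shares were 72.3% and 83.0%. At a fold enrichment of 5 to 6 the median −log10 p was 11.8 in IFNγ+PJ34, 14.4 in IFNγ, 16.5 in Control and 17.1 in PJ34, so the same enrichment carried the smallest −log10 p in the IFNγ+PJ34 list. The 4 lists covered 42.5 Mb (IFNγ), 44.1 Mb (IFNγ+PJ34), 52.6 Mb (Control) and 47.9 Mb (PJ34), and read depth is not given in them. Over the 21468 regions found in all 4 lists, the IFNγ+PJ34 list stood apart. Spearman correlations of the score percentiles, over regions that share genome and background, were 0.71 to 0.79 between IFNγ+PJ34 and the other lists and 0.83 to 0.89 among the other lists. The part of these differences in the results was not tested. All 8 macrophage markers checked, among them Spi1, Csf1r, Itgam and Adgre1, had a promoter peak in both lists, and of 23 markers of other cell types only Ms4a1 and Pecam1 had one, in both lists. The B cell gene Ms4a1 was at percentile 10.4 in IFNγ and 15.6 in IFNγ+PJ34, while Pecam1, an endothelial adhesion molecule that myeloid cells also make, was at 97.0 and 99.5. In bulk cells, fewer cells that carry a mark and less of the mark per cell cannot be told apart.

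Most peaks were common to both lists, and those that were not were mainly weak, narrow and outside promoters. Of the IFNγ peaks, 9805 (24.1%, exact Clopper-Pearson 95% interval 23.7 to 24.5%, which covers counting error only) had no IFNγ+PJ34 peak, and these made up 26.7% of the 36764 IFNγ regions. Of the IFNγ+PJ34 peaks, 11693 (27.2%, 26.8 to 27.6%) had no IFNγ peak, or 30.3% of 38652 regions. Without IFNγ, 25.1% of Control peaks were absent from PJ34 and 19.5% of PJ34 peaks from Control. The share that was absent depended strongly on the score. In the lowest of 10 score classes it was 57.2% for IFNγ and 52.7% for IFNγ+PJ34, while in the highest 0 of 4072 IFNγ peaks were absent, which allows up to 0.0906%, and 4 of 4305 IFNγ+PJ34 peaks (0.0929%) were. Between these ends, from the third class to the ninth, the IFNγ+PJ34 share was the higher at every step.

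**Figure D1:**
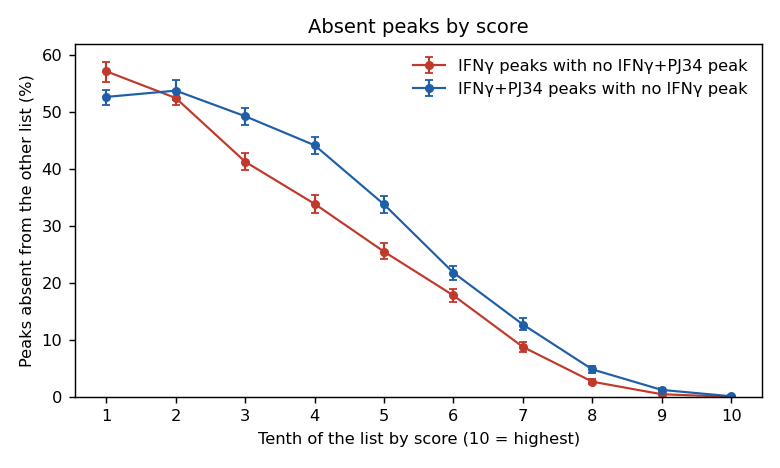
Share of the peaks of each list with no overlapping peak in the other list (percent, vertical axis) against 10 classes of score (horizontal axis, 10 the highest), with exact 95% intervals as bars. Both lines run from over 50% in the lowest class to near 0 in the highest, and the IFNγ+PJ34 line (blue) lies above the IFNγ line (red) from the third class to the ninth.

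Absent peaks had a median width of 372 bp in IFNγ and 383 bp in IFNγ+PJ34, against 831 and 839 bp for shared peaks, and their median fold enrichment was 3.57 and 4.08 against 7.31 and 8.81. Promoters, taken as summits within 1 kb of a start site of a protein-coding gene, held 6.50% (6.02 to 7.0%) of the absent IFNγ peaks and 36.7% (36.1 to 37.2%) of the shared ones. For IFNγ+PJ34 the shares were 6.70% and 37.3%. When the upper 50% of scores were taken by themselves, a limit that does not hold the score fixed between promoters and distal sites, 0.642% of IFNγ promoter peaks and 10.6% of distal peaks were absent, and for IFNγ+PJ34 the values were 0.740% and 14.1%. At the level of genes, 10533 of the 11069 genes with a promoter region in either list had it in both, 215 in IFNγ alone and 321 in IFNγ+PJ34 alone.

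The peaks absent from each list had different histories in the lists without IFNγ. Of the IFNγ peaks missing from IFNγ+PJ34, 57.3% (56.3 to 58.3%) had a Control peak and 68.4% (67.5 to 69.3%) a PJ34 peak, and 22.9% had neither. Most of these sites were therefore called in untreated cells or in cells that had only PJ34. Of the IFNγ+PJ34 peaks missing from IFNγ, 45.2% (44.3 to 46.1%) had a Control peak and 28.2% (27.4 to 29.0%) a PJ34 peak, while 49.2% (48.3 to 50.2%) had neither. Sites called in Control and not in PJ34 made up 22.6% of the latter and 8.66% of the former, so part of what IFNγ+PJ34 added to IFNγ was also present in untreated cells. On chromosome X, 18.9% of IFNγ peaks and 32.0% of IFNγ+PJ34 peaks were absent from the other list.

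The 6 highest-scoring IFNγ peaks with no IFNγ+PJ34 counterpart were all distal and lay between percentiles 83.6 and 89.3 of their list, where the percentile is a peak's position by score within its list, from 0 to 100. The highest, at chr4:133613496-133616412 in an intron of Zdhhc18, was 12.8 kb upstream of Sfn, which encodes the p53-induced protein 14-3-3 sigma. It was at 89.3 in IFNγ, 78.1 in Control and 89.0 in PJ34. The next lay 40.5 kb upstream of Cdkn2b, a cyclin-dependent kinase inhibitor, and was at 85.7 in IFNγ, 55.9 in Control and 78.4 in PJ34. The third, at chr5:90880327-90882790, lay 9.87 kb upstream of Cxcl1 and was at 85.2 in IFNγ, 84.5 in Control and 86.1 in PJ34. It was thus as high in untreated cells as with IFNγ and missing only from the list with both agents. The others were nearest to Fmo4, Lcor and Frmd6, the last at a distance of 130 kb. All 6 were present in Control and in PJ34, with percentiles of 52.1 or more.

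The 6 highest-scoring IFNγ+PJ34 peaks with no IFNγ counterpart ranked higher, between percentiles 88.7 and 95.2. The highest, at chr17:79094767-79097215 and 43.4 kb downstream of the start of Qpct, a glutaminyl cyclase gene, had no peak in any other list. The second was 71.2 kb upstream of Bmp2, a bone morphogenetic protein, at 94.2 with 74.8 in Control and none in PJ34. The third, in the intron of Mrc1 shown above (chr2:14260957-14263590, 32.6 kb from the start), was at 93.4 with 62.7 in Control and none in PJ34. The mannose receptor is a standard marker of alternatively activated macrophages. Peaks nearest to Jmjd1c, in no other list, and to Arhgap24 and Tle1, at 73.4 and 77.0 in Control, completed the set. The Tle1 peak lay 224 kb upstream of the gene. Of the 6, 4 were also in Control and 2 in PJ34.

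At the shared regions the lists kept much of their order (Spearman correlation of the percentiles 0.77 over 26959 regions). Percentiles are ranks within each list, so a median difference near 0 follows largely from the scale and says nothing of an overall gain or loss. The median shift, IFNγ+PJ34 minus IFNγ, was 0.08 percentile points with quartiles of −8.67 and 10.74. A region was counted as higher or lower at a difference of 10 points, and by this measure 7089 regions (26.3%, 25.8 to 26.8%) were higher and 6101 (22.6%, 22.1 to 23.1%) were lower in IFNγ+PJ34. With ranks taken among the shared regions alone this order turned, to 25.9% higher and 26.8% lower. Just inside and outside the limit lay 432 regions at 10 to 11 points and 406 at 9 to 10 points, and 323 and 414 on the lower side. Widths had a median log2 ratio of −0.01, with 7.27% of regions wider by 1 log2 unit or more and 6.35% narrower. Shift and width went together (Spearman 0.66 over the regions). Where each list had a single peak, in 20726 regions, the summits lay a median of 48 bp apart and 73.5% were within 100 bp.

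Promoters and distal regions differed. At 10668 promoter regions the median shift was −1.35 points, 12.1% (11.5 to 12.7%) were higher and 17.6% (16.9 to 18.4%) lower. At 16291 distal regions it was 2.92 points, with 35.6% (34.8 to 36.3%) higher and 25.9% (25.2 to 26.6%) lower. The same order held among strong regions, those with a mean percentile of 75 or more: 4.36% of promoters were higher and 8.79% lower, whereas 24.4% of distal regions were higher and 7.88% lower. Regions that neither Control nor PJ34 held (1264) had a median shift of 9.42 points, and 49.6% of them were higher. Regions held by Control and not by PJ34 (957) had a median of 14.08 points, and 58.3% were higher.

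**Figure D2:**
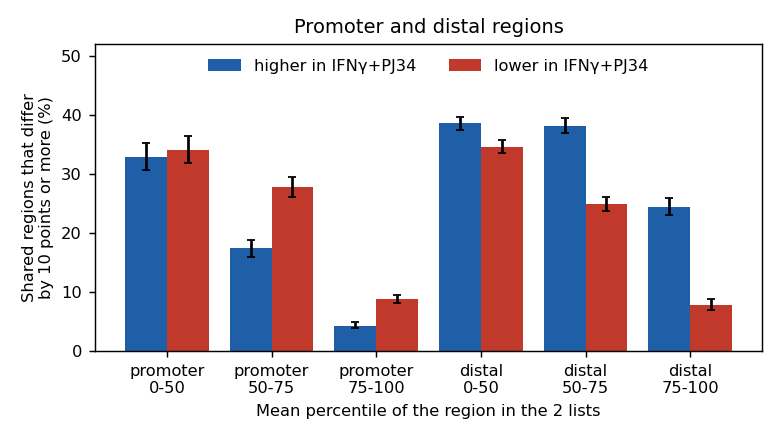
Shared regions that were higher (blue) or lower (red) by 10 percentile points or more in IFNγ+PJ34 (percent, vertical axis), for promoter and distal regions in 3 ranges of mean percentile (horizontal axis), with exact 95% intervals as bars. In the range 75-100, 24.4% of distal regions were higher and 7.88% lower, while 4.36% of promoters were higher and 8.79% lower.

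IFNγ+PJ34 differed in rank from IFNγ more than PJ34 differed from Control, as a description over the 21468 regions in all 4 lists. The SD of the shift was 18.7 points for IFNγ+PJ34 minus IFNγ and 13.2 points for PJ34 minus Control, and 44.6% against 29.6% of regions differed by 10 points or more. The 2 shifts had a Spearman correlation of −0.33 over these regions, which share their genomic sequence and the ties of the score. The IFNγ list correlated with PJ34 at 0.88 and with Control at 0.83. IFNγ is subtracted in the first shift and PJ34 is added in the second. Whatever these lists have in common therefore enters the correlation as a negative part, and the size of this part was not tested. Of the 4931 regions that were higher with IFNγ, 40.3% were lower by 10 points or more without it, against 16.9% of all regions, and 11.5% were higher. Of the 4652 regions lower with IFNγ, 24.1% were higher without it, against 12.7% of all.

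Gene lists for interferon responses, signalling, inflammation, macrophage identity, metabolism and DNA repair were then read through the regions within 50 kb of their start sites. Set beside a median of 0.08 points, 26.3% higher and 22.6% lower over all shared regions, the alternative activation genes lay farthest on the high side, at a median of 9.60 points. The NRF2 and oxidative stress genes lay farthest on the low side at −8.02, followed by glycolysis at −6.75 and the NF-κB factors and feedback inhibitors at −6.67. The IFNγ-response genes themselves lay near the middle at 0.44.

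**Figure D3:**
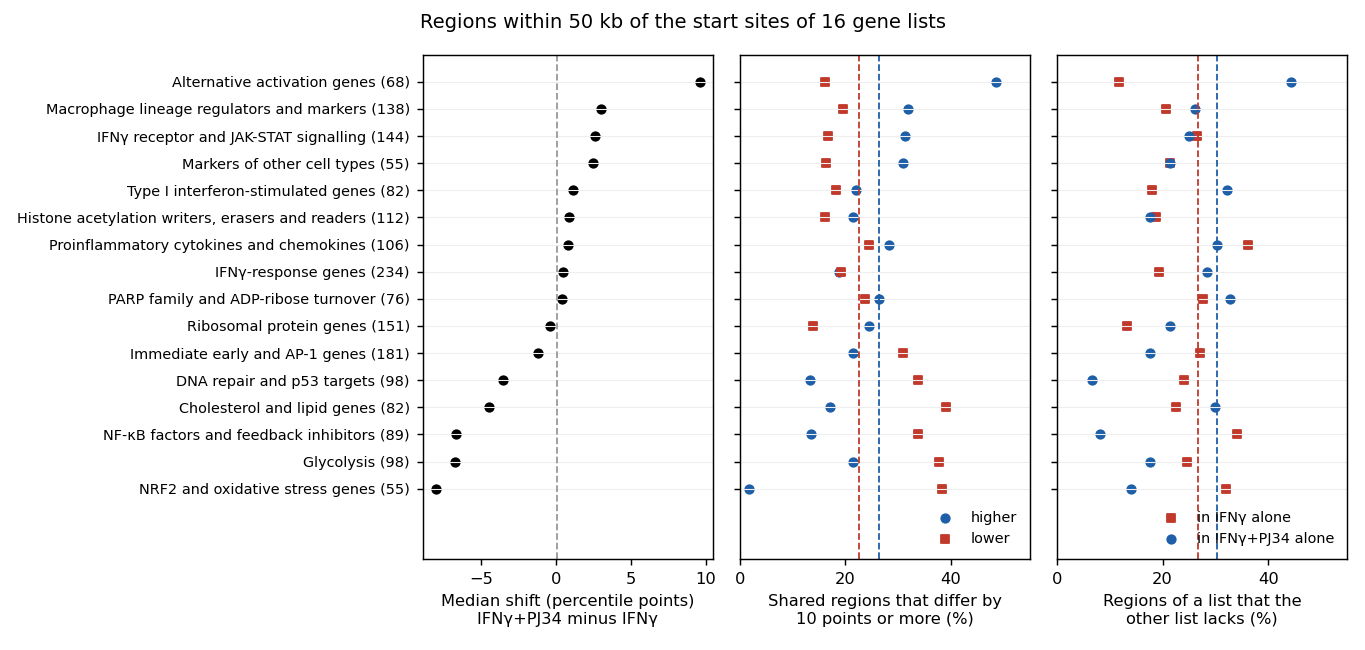
Regions within 50 kb of the start sites of 16 gene lists, with the number of shared regions in brackets. Left, median shift in percentile points (dashed line, all shared regions); middle, percent of shared regions higher (blue) or lower (red) by 10 points or more; right, percent of the IFNγ regions (red) and IFNγ+PJ34 regions (blue) with no peak in the other list (dashed lines, all regions). Alternative activation genes stand at the top with 9.60 points and NRF2 genes at the bottom with −8.02.

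IFNγ-response promoters stood near the top of both lists. Of the 49 genes of this list that matched the annotation, 44 had their strongest promoter region in both lists, 25 ranked higher and 19 lower in IFNγ+PJ34, and 1 was higher and 4 were lower by 10 points or more. Over the 10490 genes of the annotation with such a region in both lists, 40.3% ranked higher and 59.7% lower, 10.1% and 15.4% by 10 points or more. Of the 44 genes 31 were above percentile 90 in both lists, where a rank can move little. For this and the other gene lists the values are those of the gene's strongest promoter region, the one with the highest percentile in either IFNγ list, unless another is named. With the highest promoter peak of each list taken by itself, 24 ranked higher and 20 lower, and in the other gene lists these counts moved by at most 1. Over the 40 genes with a promoter region in all 4 lists the median percentile was 90.5 in Control, 96.7 in IFNγ, 88.9 with PJ34 alone and 97.8 in IFNγ+PJ34, and 52.5% were highest in IFNγ+PJ34, against 16.3% of the 10390 genes with such a region in the 4 lists. Fold enrichment, which has no such ceiling, had a median of 41.1 in IFNγ and 45.8 in IFNγ+PJ34 over the 44 genes, was lower in IFNγ+PJ34 at 20 of them, and over all genes had medians of 19.7 and 19. It went from 99.4 to 49.8 at Cd274 and from 61.3 to 30.8 at Irf1, so a like rank was not a like enrichment. Socs1, a feedback inhibitor of JAK signalling, was at 96.5 in Control, 100.0 in IFNγ, 94.2 with PJ34 alone and 100.0 in IFNγ+PJ34. Cd274, which encodes the checkpoint ligand PD-L1, was at 89.3, 100.0, 91.5 and 99.8 in the same order, in which the values of the 4 lists are given from here on. Gbp2, one of the guanylate-binding proteins that attack intracellular pathogens, was at 85.4, 97.2, 89.3 and 99.2, and Cxcl10, a T cell-attracting chemokine, at 50.7, 90.9, 70.3 and 95.8. In each of these 4 genes both lists with IFNγ lay above both lists without it.

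The interferon regulatory factors Irf1 and Irf8 ranked slightly lower in IFNγ+PJ34. Irf1 was at 99.1 in IFNγ and 95.1 in IFNγ+PJ34, with 98.3 in Control and 91.3 in PJ34. Irf8, a myeloid factor that cooperates with IRF1, was at 98.0 and 94.1, and 8 of the 14 shared regions within 50 kb of its start were lower by 10 points or more against 2 higher, with a median of −13.68. Psmb9 and Tap1, which process and transport peptides for MHC class I, share a promoter region that was at 99.8 and 99.7. The GTPase genes Irgm1 and Ifi47 were at 100.0 and 100.0 and at 97.1 and 99.6. Gbp8 was the single gene of the list whose strongest promoter region was higher by 10 points or more, at 48.7 and 70.5, and Gbp10 had a promoter peak in IFNγ+PJ34 alone (31.8).

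The MHC class II genes, which present antigen to CD4+ T cells, went the other way. H2-Ab1 was at 70.6 in Control, 71.0 in IFNγ, 82.5 with PJ34 alone and 55.4 in IFNγ+PJ34. H2-Aa was at 70.2, 69.8, 64.6 and 43.6, while the strongest H2-Eb1 promoter region was at 53.6, 53.7 and 52.9 and had no peak in IFNγ+PJ34. Over all promoter regions of H2-Eb1 the highest peaks were at 55.9, 53.7, 71.6 and 27. At each of the 3 genes the IFNγ list was close to Control, and the list with both agents was lowest. The 3 genes are neighbours and share regions, and of the 9 shared regions around H2-Aa 7 were lower and 0 higher, while 8 IFNγ regions and 1 IFNγ+PJ34 region were unmatched. Ciita, the master activator of these genes, was at 84.4 and 76.1 at its strongest promoter region, whereas 6 of the 11 shared regions within 50 kb were higher by 10 points or more and 0 lower, with a median of 10.47. Cxcl9 (68.5 and 45.6) and Nos2, the inducible nitric oxide synthase (69.3 and 57.4), were the remaining IFNγ-response genes that were lower by 10 points or more. Within 50 kb of all IFNγ-response genes, 56 of 290 IFNγ regions (19.3%, 14.9 to 24.3%) and 93 of 327 IFNγ+PJ34 regions (28.4%, 23.6 to 33.7%) were unmatched, against 26.7% and 30.3% of all regions. The first share was thus below the background and the second near it.

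Type I interferon-stimulated genes, antiviral genes that type I interferon induces, had small shifts. A promoter region was found in both lists for all 21, 16 of 21 ranked higher in IFNγ+PJ34 than in IFNγ, and 16 were highest in IFNγ+PJ34 among the 4 lists, against 40.3% and 16.3% of all genes. Ifit2, which blocks translation of viral RNA, was at 74.8 in Control, 79.8 in IFNγ, 52.9 with PJ34 alone and 96.1 in IFNγ+PJ34. Irf7, a factor that amplifies type I interferon, was at 96.9, 92.8, 89.9 and 99.2. The list's median shift was 1.13 points, and it was −0.80 when only regions with a single peak of each list were used, so its side depended on this choice. Genes of the IFNγ receptor and JAK-STAT pathway had a median of 2.59 points, with 45 of 144 regions higher (31.2%) and 24 lower (16.7%). Among their promoters Stat4 alone was lower by 10 points or more (56.3 and 21.9) and none was higher. The receptor genes Ifngr1 and Ifngr2 were at 93.0 and 95.8 and at 93.8 and 99.5.

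NF-κB factors and the inhibitors they induce ranked lower in IFNγ+PJ34. All 14 genes had a promoter region in both lists, 13 of 14 ranked lower in IFNγ+PJ34 and 12 of 14 were lower there than in any other list. Over all genes 59.7% of promoters ranked lower and 51.4% were lowest in that list, so the background leaned the same way. The 14 genes had a median IFNγ percentile of 98.7, against 84.8 over all genes, so their ranks had little room to rise. Fold enrichment had a median of 54.5 in IFNγ and 41.7 in IFNγ+PJ34. It was lower in IFNγ+PJ34 at all 14, against 53.9% of all genes. Tnip1 was at 95.5 in Control, 97.7 in IFNγ, 99.0 with PJ34 alone and 79.4 in IFNγ+PJ34. Nfkbie, an inhibitor that holds NF-κB in the cytoplasm, was at 92.8, 93.5, 96.3 and 76.1. Traf1, a signalling adaptor, was at 93.9, 95.9, 96.0 and 83.5 in its main promoter region, while a second region that overlaps the promoter, chr2:34956538-34959511, went from 90.5 to 8.96 and was among the 6 largest decreases in rank of all shared regions. The DNA-binding subunits Rela, Relb, Nfkb1 and Nfkb2 had shifts of −3.13 to −2.24 points, and Rel of 0.73.

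The regions around these genes showed the same order. Of 89 shared regions 30 were lower (33.7%) and 12 higher (13.5%), and the median was −6.67. Of the IFNγ regions, 46 of 135 (34.1%, 26.1 to 42.7%) had no IFNγ+PJ34 peak, while 8 of 97 IFNγ+PJ34 regions (8.25%, 3.63 to 15.6%) had no IFNγ peak. The first share lay above the background of 26.7% and the second below that of 30.3%. Around Tnfaip3, the deubiquitinase A20, 8 IFNγ regions and 1 IFNγ+PJ34 region were unmatched, and around Nfkb1 the numbers were 8 and 0. Without IFNγ, the list's median shift at the regions in all 4 lists was 3.14 points, and with IFNγ −3.13.

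Immediate early and AP-1 genes, which respond to many stimuli within minutes, mostly ranked lower at promoters. Of 21 genes with a promoter region in both lists 17 ranked lower, 8 by 10 points or more, and 2 were higher by that amount, against 59.7%, 15.4% and 10.1% of all genes. Their median IFNγ percentile was 96.0, against 84.8 over all genes, which left little room to rise. Fold enrichment was lower in IFNγ+PJ34 at 17 of the 21, against 53.9% of all genes. Within 50 kb, 39 of 181 shared regions were higher and 56 lower, with a median of −1.22. Egr1 was at 79.4 in Control, 87.9 in IFNγ, 86.6 with PJ34 alone and 47.3 in IFNγ+PJ34. Fosb, an AP-1 subunit, was at 67.7, 83.8, 90.4 and 35.5, and the growth regulator Myc at 74.3, 77.9, 83.5 and 35.5. Dusp2, a phosphatase that turns off MAP kinases, was at 89.2, 93.5, 93.7 and 55.4. In all 4 genes the list with both agents was far below the other lists. The AP-1 genes Jun (98.9 and 98.5) and Junb (99.8 and 98.6) hardly differed. Egr2 (77.7 and 93.3) and Klf2 (73.3 and 90.2), the latter a factor that damps inflammatory activation, were the exceptions in the other direction.

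**Figure D4:**
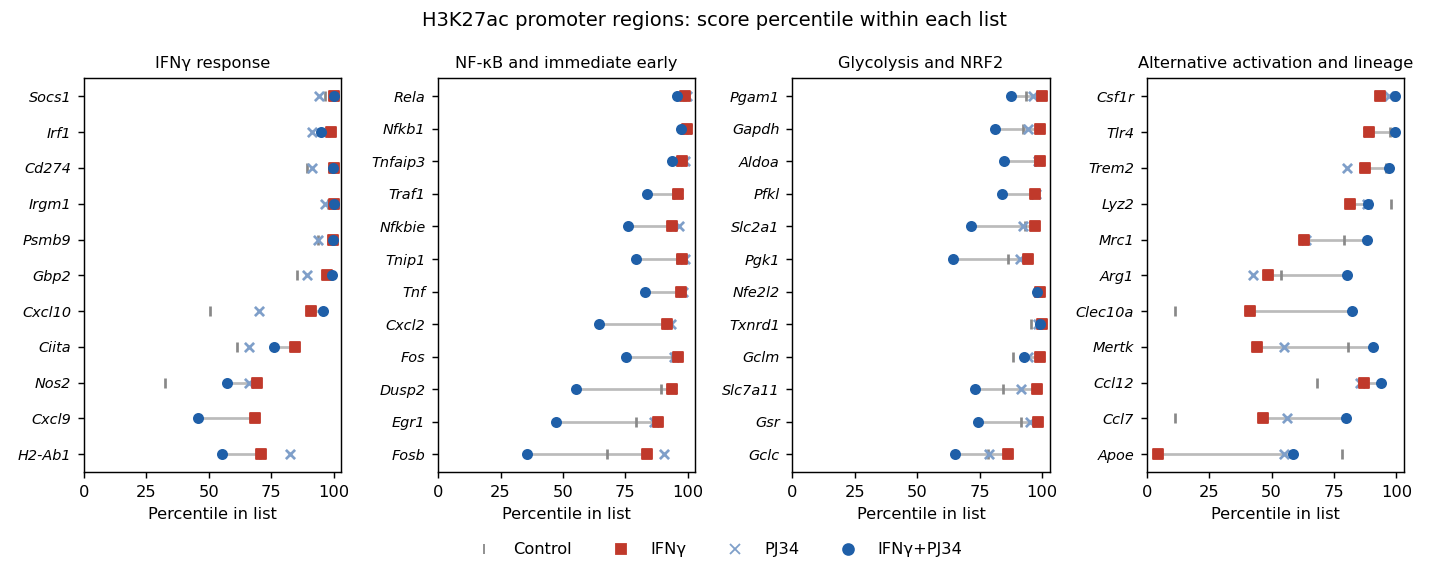
Score percentile (horizontal axis, 0 to 100) of the strongest promoter region of 46 genes in the Control (grey bar), IFNγ (red square), PJ34 (light blue cross) and IFNγ+PJ34 (dark blue circle) lists, with a line between both IFNγ lists. A missing symbol means that the list had no peak in that region. Socs1, Irgm1 and Cd274 stand near 100 with IFNγ in either list, Egr1 and Fosb stand lower in IFNγ+PJ34, and Mrc1, Arg1 and Mertk stand higher there.

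Cytokine and chemokine genes fell into groups by locus. Of the 14 genes with their strongest promoter region in both lists 7 ranked higher and 7 lower in IFNγ+PJ34. By 10 points or more, 2 were higher and 5 lower. Over all genes 40.3% ranked higher and 59.7% lower, 10.1% and 15.4% by 10 points or more. The median shift of the 14 promoters was −2.78 points, against −1.27 over all genes. Ptgs2, Ccl5 and Cxcl1 had a promoter peak in IFNγ and none in IFNγ+PJ34. The highest Il1b promoter peaks were at 82.4 in Control, 48.7 in IFNγ, 82.8 with PJ34 alone and 15.6 in IFNγ+PJ34. The upstream peak that gave the Control and PJ34 values was at 74.4 in IFNγ, where it ended just beyond the 1 kb limit, and at 35.5 in IFNγ+PJ34. At Ccl2 they were at 34.3 in IFNγ, 48.6 with PJ34 alone and 62.2 in IFNγ+PJ34, and Control had none. Tnf, the tumour necrosis factor gene, was at 97.1 in Control, 97.4 in IFNγ, 98.0 with PJ34 alone and 82.9 in IFNγ+PJ34, and 8 IFNγ regions and 0 IFNγ+PJ34 regions around it were unmatched. Il6 was at 63.8 and 53 and Il27 at 70.6 and 47.3. In contrast, Il15 and Il18, whose products act on NK and T cells, were at 99.3 and 99.5 and at 94.0 and 94.6. The 18 promoter regions of the list had a median of −6.33 points, and the 88 other regions 1.94.

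Around Cxcl1 and Cxcl2, which share most of their regions, 4 IFNγ regions and 0 IFNγ+PJ34 regions were unmatched, and 3 of 4 shared regions were lower. The Cxcl1 promoter peak was at 52.1 in Control, 38.4 in IFNγ and 56.3 in PJ34 and was missing from IFNγ+PJ34. The strongest Cxcl2 promoter region, chr5:90896542-90903797, was at 90.8, 91.5, 93.1 and 64.3, and a second one that covers the start of the gene went from 69.8 to 0.523. The sequence upstream of each gene, shown above, holds an NF-κB match. Peaks within 50 kb of Cxcl1 covered 23.0 kb in Control, 17.6 kb in IFNγ, 26.4 kb with PJ34 alone and 6.05 kb in IFNγ+PJ34, although their number was 9 in IFNγ and 12 in IFNγ+PJ34. The Il1b locus followed this order, with 18.2, 11.1, 23.9 and 3.64 kb. Il1b encodes interleukin 1 beta, and 8 IFNγ regions and 1 IFNγ+PJ34 region around it were unmatched. The genes Il1a (11 and 0) and Cxcl5 (15 and 0) were among the loci with the largest surplus of unmatched IFNγ regions.

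The cluster of monocyte-attracting chemokines on chromosome 11 showed the opposite. Around Ccl2, 16 IFNγ+PJ34 regions and 0 IFNγ regions were unmatched, and 11 of 12 shared regions were higher and 0 lower by 10 points or more. The peak 12.4 kb upstream, chr11:82022903-82024493, was at 45.1 in Control, 10.4 in IFNγ, 76.9 with PJ34 alone and 89.4 in IFNγ+PJ34, and its width in the IFNγ lists was 301 and 1591 bp. Peaks within 50 kb covered 7.80 kb in Control, 9.74 kb in IFNγ, 28.5 kb with PJ34 alone and 28.8 kb in IFNγ+PJ34, so the locus was wide in both lists with the inhibitor, with and without IFNγ. The neighbouring promoters of Ccl7 (46.7 and 79.9), Ccl8 (29.9 and 57.4) and Ccl12 (87.2 and 93.7) were also higher. These genes lie close together, and their regions overlap.

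**Figure D5:**
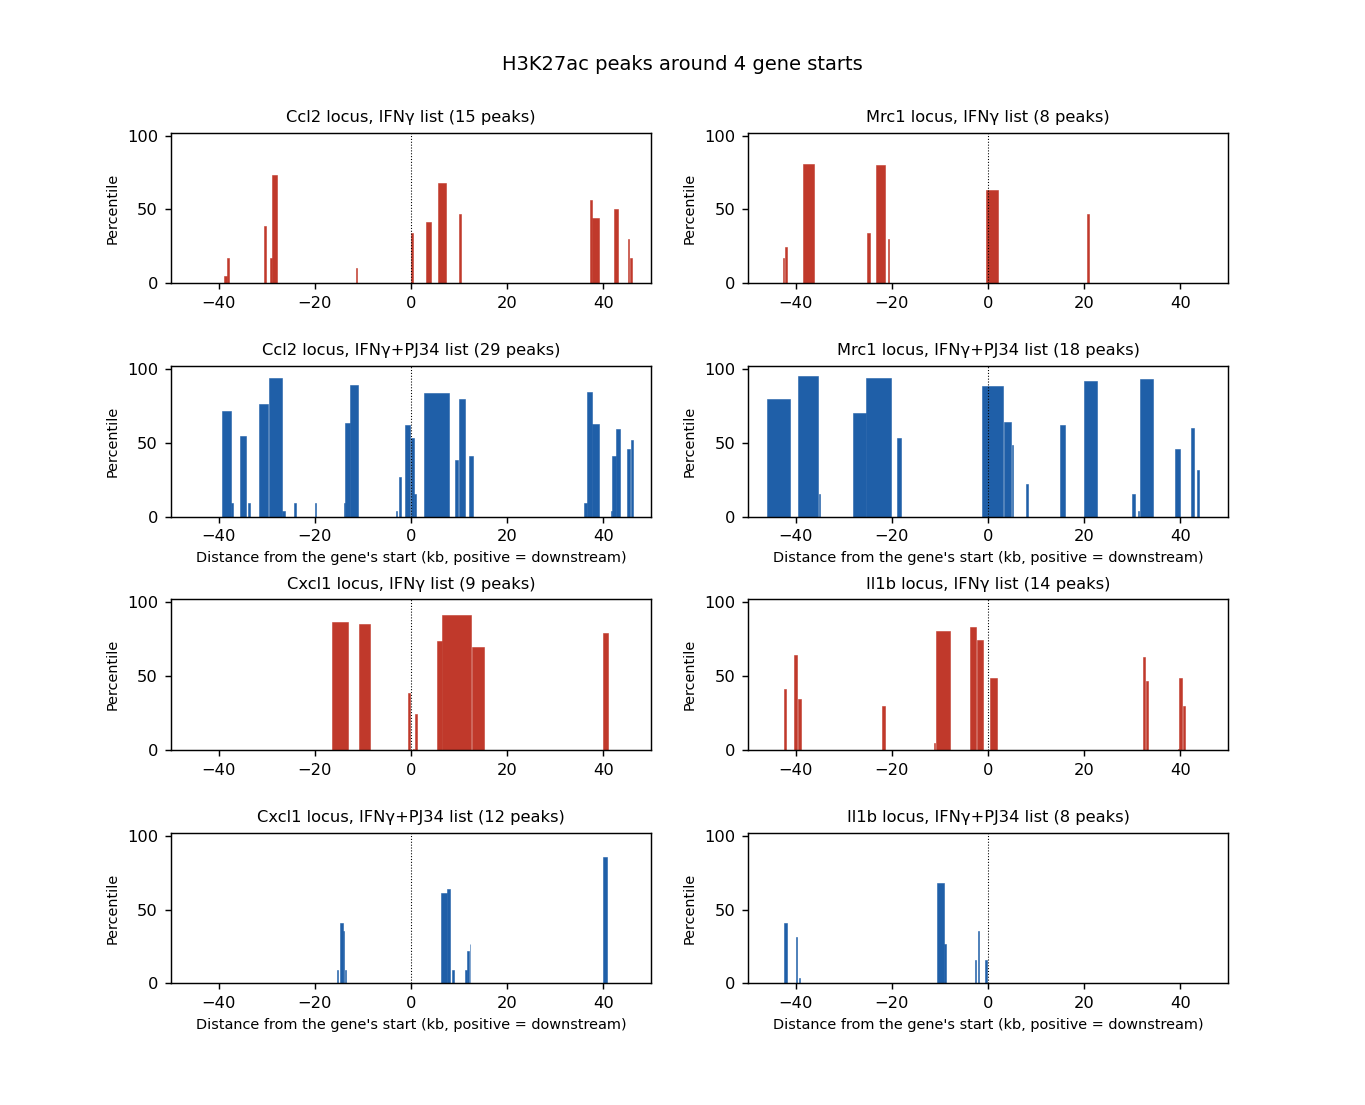
Peaks of the IFNγ list (red) and of the IFNγ+PJ34 list (blue) around the starts of Ccl2, Mrc1, Cxcl1 and Il1b, with the distance from the start in kb (horizontal axis, positive downstream) and the score percentile as the height of each peak. The Ccl2, Mrc1, Cxcl1 and Il1b loci hold 15, 8, 9 and 14 peaks in IFNγ and 29, 18, 12 and 8 in IFNγ+PJ34, and these cover 9.74, 8.60, 17.6 and 11.1 kb in IFNγ and 28.8, 33.9, 6.05 and 3.64 kb in IFNγ+PJ34.

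Alternative activation genes, which mark macrophages exposed to interleukin 4 and resolving tissue, stood highest. Of 68 shared regions 33 were higher (48.5%) and 11 lower (16.2%). Of 122 IFNγ+PJ34 regions 54 (44.3%, 35.3 to 53.5%) had no IFNγ peak, against 30.3% of all regions. Of 77 IFNγ regions 9 (11.7%, 5.49 to 21%) had no IFNγ+PJ34 peak, against 26.7% of all. The 54 include 13 around the single gene Mrc1. Mrc1 was at 78.9 in Control, 62.9 in IFNγ, 63.8 with PJ34 alone and 88.2 in IFNγ+PJ34, and 13 IFNγ+PJ34 regions and 0 IFNγ regions around it were unmatched. Peaks there covered 21 kb in Control, 8.60 kb in IFNγ, 9.52 kb with PJ34 alone and 33.9 kb in IFNγ+PJ34. Arg1, the arginase that competes with Nos2 for arginine, was at 53.6, 48.7, 42.5 and 80.3, and its IFNγ peak in this region lay more than 1 kb from the start. At the lectin gene Clec10a the highest promoter peaks were at 63.3, 50.4, 38.2 and 82.4. At each of these genes the promoter ranked no higher in PJ34 than in Control. Ccl24, an eosinophil-attracting chemokine, had a promoter peak in IFNγ+PJ34 alone (66.7). Klf4, Il4ra and Pparg had shifts of −1.28 to 0.24 points, Tgfbi was lower (70.2 and 54.3), and Retnla, Chil3, Cd163, Mgl2 and Ccl17 had no promoter peak in either list. The set was small, with 9 promoters in both lists.

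Macrophage lineage genes leaned the same way by less, and at the level of regions this was not particular to them. Their 138 shared regions had a median of 3.00 points, with 44 higher (31.9%) and 27 lower (19.6%). The 55 regions of the markers of other cell types had a median of 2.49, with 30.9% higher and 16.4% lower. The 116 lineage regions outside these genes' promoters had a median of 2.04, below the 2.92 of all distal regions. Their 22 promoter regions had a median of 4.11, against −1.35 over all promoters. All 18 promoters were in both lists, and 12 of them ranked higher. Mertk, a receptor for the uptake of dying cells, was at 80.8 in Control, 44.0 in IFNγ, 54.8 with PJ34 alone and 90.8 in IFNγ+PJ34. The endotoxin receptor Tlr4 was at 97.5, 88.9, 88.8 and 99.3. In both genes the IFNγ list lay below Control and the IFNγ+PJ34 list above IFNγ. Csf1r, the receptor for the growth factor M-CSF, was at 99.7, 93.5, 97.2 and 99.4. The regulators Spi1 (99.9 and 97.2), Cebpb (97.3 and 90.6) and Cebpa (80.9 and 71.7) were on the lower side, without reaching 10 points.

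Glycolysis genes were lower at almost every promoter. All 16 had a region in both lists, 14 ranked lower, 9 by 10 points or more, and none was higher by that amount, against 59.7%, 15.4% and 10.1% of all genes. Pgk1, phosphoglycerate kinase, was at 86.3 in Control, 94.3 in IFNγ, 91.3 with PJ34 alone and 64.3 in IFNγ+PJ34. Slc2a1, the glucose transporter GLUT1, was at 93.3, 97.0, 92.2 and 71.4, and Gapdh at 92.4, 99.3, 94.3 and 81.1. For the 16 genes the median percentile was 92.8 in Control, 97.5 in IFNγ, 93.9 with PJ34 alone and 83.6 in IFNγ+PJ34, and 13 of 16 were lowest in the last. So near the top of the IFNγ list a rank has little room to rise. Fold enrichment had a median of 40.8 in IFNγ and 19.7 in IFNγ+PJ34. It was lower in IFNγ+PJ34 at 14 of the 16, against 53.9% of all genes. Hif1a (98.0 and 98.5), which drives these genes in low oxygen, and Pkm (97.7 and 98.9) were the exceptions.

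Genes of the oxidative stress response driven by NRF2 ranked lower at all promoters found in both lists. Of 13 genes 12 had a promoter region in both lists and all 12 ranked lower, 3 by 10 points or more (25%), against 59.7% and 15.4% of all genes. Nqo1, a quinone reductase and classic NRF2 target, had a peak at 54.8 in Control, 75.1 in IFNγ and 65.3 in PJ34 and none in IFNγ+PJ34. Slc7a11, the cystine transporter, was at 84.3, 98.1, 91.4 and 73.2, and the width of its promoter region was 9603 bp in IFNγ and 2463 bp in IFNγ+PJ34. Gsr, glutathione reductase, was at 91.5, 98.4, 95.1 and 74.5, and Gclc, which makes the first step of glutathione synthesis, at 78.5, 86.2, 78.8 and 65.0. Nfe2l2, which encodes NRF2 itself, hardly differed (99.1 and 98.0). Of 55 shared regions around these genes 21 were lower (38.2%) and 1 higher (1.82%). Unmatched were 26 of 81 IFNγ regions (32.1%) and 9 of 64 IFNγ+PJ34 regions (14.1%), against 26.7% and 30.3% of all regions.

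DNA repair and p53 target genes, chosen because PARP-1 acts in DNA repair, had a median of −3.54 points, and 33 of 98 shared regions were lower (33.7%) and 13 higher (13.3%). Of the IFNγ+PJ34 regions 7 of 105 (6.67%, 2.72 to 13.3%) were unmatched, against 30.3% of all regions, which was the smallest share among the 16 lists. At promoters 14 of 20 (70%) ranked lower, 3 of them by 10 points or more (15%), which is close to the 59.7% and 15.4% of all genes, with Xrcc6 (89.3 and 74.9), Atr (83.6 and 71.0) and Atm (75.7 and 63.6) lower, and Bbc3 (79.4 and 89.9) higher. Cdkn1a, the p53 target p21, was at 99.5 and 95. Cholesterol and lipid genes had a median of −4.46 points (interval −11.73 to 1.31, so its side was not settled), with 32 of 82 regions lower (39.0%) and 14 higher (17.1%). At promoters 11 of 17 (64.7%) ranked lower, close to the 59.7% of all genes. Among single genes, Sqle (74.8 and 27), Srebf2 (96.2 and 78.7) and Scd2 (44.0 and 8.96) were lower. Apoe, a lipid carrier, was at 78.1 in Control, 4.54 in IFNγ, 54.8 with PJ34 alone and 58.4 in IFNγ+PJ34.

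Housekeeping promoters differed too. At the 25 ribosomal protein promoters 23 ranked lower in IFNγ+PJ34, 3 of them (Rpl8, Rpl11 and Rps24) by 10 points or more, with a median of −4.93, and 22 of 25 were lowest in that list, against 51.4% of all genes. Over all 151 regions of this list the median was −0.43, and 0.09 when ranked by fold enrichment. All promoters had a median of −1.35, so lower promoter ranks were not limited to the stress and inflammatory genes. The PARP family showed little difference: Parp1 was at 69.8 and 72.5, Parp2 at 85.2 and 87.9, and the interferon-inducible Parp9 and Parp14 at 99.9 and 100.0 and at 99.8 and 100.0. Parp9 shares its promoter region with Dtx3l. None of the 20 promoters was higher by 10 points and 2 were lower (Adprhl2 and Macrod1). Among histone acetylation genes, the acetyltransferases Ep300 (99.5 and 99.1) and Crebbp (93.5 and 90.2) were similar, and Kat2a (68.5 and 86.2) and the reader Brd3 (57.4 and 76.9) were among those higher by 10 points or more.

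The largest differences at shared regions were nearly total exchanges of rank, and those named here were chosen by them. The greatest increase, in an intron of the mitochondrial ribosome gene Mrpl1 (chr5:96243856-96246026), went from 4.54 to 92.9. Increases at the regions nearest to Fam160b1, Cradd, Rreb1, Enox1 and Ccl2 ranged from 78.92 to 86.20 points, and 5 of these 6 regions had a Control peak, at 26.9 to 69.4. The Rreb1 region lay 230 kb upstream of the gene's start, and the Enox1 region lay in an intron 166 kb from the start. The greatest decrease, in an intron of the protease inhibitor gene Serpinb1b (chr13:33089287-33091789), went from 92.2 to 3.47, with 49.1 in Control and 77.9 in PJ34. Decreases near Ccdc57, Cmtr1 (in 2 adjacent regions), Traf1 and Spdef ranged from −84.62 to −80.34 points, and these regions were at 57.0 to 84.6 in Control and 75.4 to 96.0 in PJ34. What remained of these 6 regions in IFNγ+PJ34 was 189 to 598 bp wide, against 1187 to 2974 bp in IFNγ.

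Widths also differed by severalfold at single regions. Among regions at the 50th percentile or higher in both lists, the greatest widening was 6.85 kb upstream of Vamp4 (310 to 2656 bp). Regions 176 kb upstream of Eef2kmt and in introns of Fggy and Dthd1 followed, with log2 ratios of 2.44 to 2.64. The greatest narrowing was 7.83 kb upstream of Prdx1, a peroxide-removing enzyme of the NRF2 list (chr4:116676266-116680128, 3863 to 561 bp). The next was an intergenic region 74.8 kb upstream of Nampt, an enzyme of NAD synthesis (3197 to 505 bp), beyond the 50 kb used for gene lists. Regions 34.8 kb upstream of Tbc1d14 and in an intron of Fnbp1 followed. The Prdx1 region was at 36.8 in Control, 80.2 in IFNγ, 42.5 with PJ34 alone and 55.4 in IFNγ+PJ34, and the Nampt region at 45.1, 82.7, 68.0 and 50.2.

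At some loci all shared regions shifted to the same side. For 6975 genes with 4 or more shared regions within 50 kb, the sign of each shift was counted, whatever its size. The limit used above for higher and lower regions was not applied, and the smallest shift at Tifab was 0.47 points. By sign, 378 genes (5.42%) had all regions higher and 512 (7.34%) had all regions lower. The shares that chance alone would give were not worked out, so a common direction of whole loci was not tested. The largest medians on the high side belonged to Gpr82 (57.05 points over 5 regions) and its neighbour Gpr34, orphan receptor genes on chromosome X that share regions, then Lifr (44.40), Tifab (43.34) and Il6st (42.79). Lifr and Il6st encode the receptor subunits for leukaemia inhibitory factor and the shared signal transducer gp130. On the low side were Cmtr1 (−43.60), Osgin2 (−43.23), Mark2 (−41.02), the MHC class I gene H2-Q6 (−38.04) and Gm9817 (−36.69). Around Lifr 9 further regions were in IFNγ+PJ34 alone, and around Mark2 5 were in IFNγ alone. Among the genes with the largest surplus of unmatched IFNγ+PJ34 regions were Ccl7, Ccl2, the purinergic receptor P2ry12 and Mrc1, with 18, 16, 15 and 13 such regions and at most 1 unmatched IFNγ region each. Among those with the largest surplus of IFNγ regions were Apbb1ip (18 and 1), Cxcl5 (15 and 0), the zinc transporter Slc39a14 (15 and 1) and Klf6 (13 and 1). The genes of these counts were chosen after their values were seen.

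Among single promoter peaks, also chosen after their values were seen, those in IFNγ alone included Nqo1, Me1, an NADPH-making enzyme, and Fpr1, a receptor for bacterial peptides (71.8 in IFNγ, 65.8 in Control and 80.0 in PJ34). Those in IFNγ+PJ34 alone included Galnt9 (87.9) and Asgr2, a lectin gene near Clec10a (79.7), both with a weaker Control peak. The greatest promoter increase among shared regions was at Fcrls, an Fc receptor-like gene, from 17.0 to 83.2, with 72.8 in Control and 72.0 in PJ34. After Traf1, the greatest decrease was at the adenosine receptor Adora2a, from 84.5 to 8.96, with 78.9 in Control and 91.7 in PJ34. At both genes a single list stood apart, IFNγ for Fcrls and IFNγ+PJ34 for Adora2a.

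Sequence motifs were counted at the summits of each class of peaks. Within 100 bp of the summit, a GAS element (TTCNNNGAA, which reads the same on both strands) was found in 6.09% (5.62 to 6.58%) of the IFNγ peaks missing from IFNγ+PJ34 and in 6.53% (6.09 to 7.0%) of the IFNγ+PJ34 peaks missing from IFNγ. Shared peaks held it in 5.36% and 5.43%, and the exchanged motif GAANNNTTC was found in 5.25%, 5.13%, 4.13% and 4.21% of the same classes. Shared peaks lay more often at promoters, so the classes are not alike. Among distal peaks alone, a GAS was found in 6.11% and 6.70% of the unmatched classes. The shared distal peaks held it in 6.41% and 6.43%, so the unmatched classes did not both exceed them. An AP-1 site (TGANTCA) was found in 6.77% (6.28 to 7.29%) of the unmatched IFNγ peaks and 5.42% (5.02 to 5.85%) of the unmatched IFNγ+PJ34 peaks. Shared peaks held it in 4.33% and 4.67%. Among distal peaks alone the AP-1 shares were 6.96% and 5.65% unmatched and 5.53% and 6.05% shared. An ISRE (either strand) was found in 3.08% and 2.95% of the unmatched classes and in 2.56% and 2.49% of the shared ones. Among distal peaks these were 3.15% and 3.05%, and 3.19% and 3.05%. At shared promoters, 5.57% (4.39 to 6.97%) of those higher in IFNγ+PJ34 held a GAS, 2.66% (1.98 to 3.49%) of those lower and 3.51% of those within 10 points. The exchanged motif was found in 4.18%, 3.78% and 2.29% of the same promoter classes. A match to the NF-κB consensus was found in 6.73%, 8.35% and 9.87% of these promoters. The median GC content was 45.5% and 45.0% in the unmatched classes and 50.0% in the shared ones. At the promoters it was 60.5% in those higher, 62.5% in those lower and 66.0% in those within 10 points. The part of GC content in the motif shares was not tested.

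In the 250 bases before the RefSeq start sites, motif matches were counted by gene list. Matches to the NF-κB consensus were found at 6 of 11 NF-κB list genes with a sequence (54.5%), against 8.23% of 27025 genes. The 6 genes were Tnip1, Nfkbie, Nfkb2, Tnfaip3, Nfkbia and Rel, the last of which ranked slightly higher in IFNγ+PJ34. Traf1 and Rela, which ranked lower there, had no match. Such matches were also found at 8 of 34 IFNγ-response genes (23.5%) and 4 of 18 type I interferon-stimulated genes (22.2%). The regions of these lists had median shifts of 0.44 and 1.13 points. The antioxidant response element core TGACNNNGC was found at 4 of 10 NRF2 list genes (40.0%) against 11.5% of all. GAS elements were found at 11 of 34 IFNγ-response genes (32.4%) against 8.13% of all, and ISREs at 14 of 34 (41.2%) against 3.46%. A match describes the letters of a window and is not a bound site. The alternative activation list had an NF-κB match at 0 of 11 genes and an ISRE at 1 of 11.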

How the data were processed

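H3K27ac ChIP-seq was analysed from the deposited peak lists of BMDMs under Control, IFNγ, PJ34 and IFNγ+PJ34, each made from 2 replicates. According to the submitters' processing notes and the methods, the authors aligned reads with Bowtie to mm10, called relaxed peaks per replicate against input with MACS and kept peaks that overlapped in both replicates. Each deposited file gives a peak score, a fold enrichment as a linear ratio, a −log10 p-value, a −log10 q-value and a summit offset. The number of reads behind a peak is not given, so depth is unknown and intervals cover counting error only.

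The deposited scores were turned into percentiles within each list (0 to 100, ties sharing their mean rank), so that a percentile is a relative position and not an amount of acetylation. Peaks overlapping by 1 bp were merged into regions, and a region took the highest score of each list. A shift is IFNγ+PJ34 minus IFNγ and was counted at 10 points. Promoters were summits within 1 kb of a start site of 21840 protein-coding genes of GENCODE M21. A gene's promoter regions were those with any base within 1 kb of its start sites, and genes were given all regions within 50 kb. Counts over gene lists are set beside all genes with a promoter region in both lists. With 1 list per condition no test was run. Shares have exact Clopper-Pearson 95% intervals, and neighbouring peaks are not independent.

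Named regions were the 6 highest-scoring peaks absent from each list, the 6 largest shifts each way, the 4 largest width ratios each way among regions at the 50th percentile or higher in both lists, and the 5 genes each way with the largest median shift over 4 or more shared regions that all had the same sign; any gene of the lists could be named, and some results are not reported here. The members and the gene lists were chosen with earlier results of these data known. Named promoters, the counts of unmatched regions by gene, the loci drawn and the promoter motif search were chosen after values were seen, as was ranking by −log10 p. The other alternatives were the overlap rule, score and q limits, equal list lengths, ranking by fold enrichment or among shared regions, other shift limits and other motif windows. Scripts were tested on simulated data. Python 3.11.15, numpy 2.4.6, pandas 2.3.3, scipy 1.17.1, pysam 0.24.0, bedtools 2.31.1 and matplotlib 3.10.9 were used.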

Additional observations from a re-analysis of the deposited data

Results flagged for a closer look

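In 5 of 16 gene lists, the median shift at regions found in all 4 peak lists had one sign with IFNγ (IFNγ+PJ34 minus IFNγ) and the other sign without it (PJ34 minus Control), both of 1 point or more. The difference was not tested, since each condition had a single list. Over all 21468 regions in the 4 lists, the shifts with and without IFNγ had a Spearman correlation of −0.33. Opposite signs were thus not particular to these gene lists. The IFNγ and PJ34 lists enter these shifts with opposite signs and were alike (Spearman 0.88), and the part of this likeness was not tested. Alternative activation genes had medians of 10.45 points with IFNγ and −3.45 without it over 46 regions, a difference of 13.90. NRF2 and oxidative stress genes had −6.94 and 1.07 over 50 regions, a difference of −8.01. For NF-κB factors and feedback inhibitors the medians were −3.13 and 3.14 over 69 regions, with a difference of −6.27. Macrophage lineage genes had 2.26 and −1.13 over 96 regions (3.39), and type I interferon-stimulated genes 1.02 and −1.73 over 67 regions (2.75). Over all shared regions, the interval of the lineage median held 0 (−0.04 to 5.17). The type I median there turned to −0.80 when only regions with a single peak of each list were used.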

How the results depend on the processing

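No paired analysis was possible because both replicates of a condition went into 1 list, which also left no replicate to omit. Of 62 alternatives for the main values, 35 stayed within the interval of the value reported and 27 moved outside it. No median whose interval left out 0 changed sign. The median shifts over all shared regions and near IFNγ-response genes have intervals that hold 0, so they are not covered by this. The share of IFNγ peaks absent from IFNγ+PJ34 was 33.2% when 50% of the peak had to be overlapped, 15.6% within 1 kb, 5.99% in the higher-scoring 50%, 23.0% at q under 0.001 and 25.6% with lists of equal length. For IFNγ+PJ34 peaks these were 36.5%, 18.3%, 8.23%, 26.8% and 25.9%. Shared regions higher in IFNγ+PJ34 were 27.8% by fold enrichment, 25.1% in the higher-scoring 50%, 35.8% at 5 points and 13.9% at 20 points. Lower regions were 25.1%, 21.1%, 33.4% and 11.9%, and among shared regions alone 25.9% were higher and 26.8% lower, which turns the order of the values reported (26.3% and 22.6%). The median shift was 0.28 by fold enrichment, −0.51 among shared regions alone and −0.04 with 1 peak of each list, so its sign was not settled. Near IFNγ-response genes it was −0.05 at promoters among shared regions alone and −0.04 within 100 kb. Unmatched IFNγ regions at IFNγ-response genes were 2.21% in the higher-scoring 50%. GAS shares over whole peaks were 13.6% (IFNγ) and 16.4% (IFNγ+PJ34), and 0.428% and 0.650% with a stricter motif. The correlation with the shift without IFNγ was −0.25 by fold enrichment. Of 90 gene list alternatives 89 stayed and 1 moved, with a change of sign for type I interferon-stimulated (−0.80) and ribosomal protein genes (0.09). For named regions 0 of 40 reversed. These regions were picked for large shifts or width ratios in the same lists, which left little room for a reversal, so this is no support for them. The cause of the changes above was not tested. Read depth and replicate spread are unknown and limit every value.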
